A study of Mus musculus with 12 samples.

Results

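The genes described are 9 complement components, regulators and receptors, chosen by symbol and found as rows of a count table of 55401 mouse genes. They are C1qa, C1qb and C1qc, which encode the chains of C1q, the genes of the components C3, factor B (Cfb) and properdin (Cfp), Serping1, which encodes the C1 inhibitor, and C3ar1 and C5ar1, which encode the receptors of the anaphylatoxins C3a and C5a. RNA was sequenced in 12 libraries of Sp37A3, a dendritic cell (DC) line grown from the spleen of C57BL/6 mice and kept in medium with GM-CSF and M-CSF. The control line (CtrV) carried an empty vector, and the other line (EKO) was a pool of clones edited by CRISPR/Cas9 at Siglece, the gene of the inhibitory sialic acid receptor Siglec-E. Cells of both lines were left unpulsed or were pulsed with ovalbumin (OVA), and all of them were stimulated with LPS for 24 h before lysis, with 3 libraries in each of the 4 groups. For pulsed cells the study's methods give 0.1 mg/ml OVA for 2 h and then 0.1 µg/ml LPS, and for unpulsed cells no dose is given. Every group had seen LPS, so none shows the levels of resting cells. Nothing in the labels says that replicates came from separate cultures, and the p-values measure the spread between these libraries. In bulk RNA, fewer cells that express a gene and less of its RNA per cell cannot be told apart.

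Complement is a cascade of plasma proteins that is started by C1q bound to antibody or to cell debris, by lectins bound to sugars, or by the alternative pathway, in which C3b, factor B and properdin build the convertase that splits more C3. The split products C3a and C5a act on G protein-coupled receptors of myeloid cells, and the C1 inhibitor blocks the proteases attached to C1q. Most complement proteins in plasma come from the liver, whereas C1q and properdin are known as products of myeloid cells such as macrophages, DCs and neutrophils.

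Library totals lay between 27116201 and 39698572 counts. Levels are given as CPM, the counts that edgeR sets against each TMM-normalized library total. On this scale 3 counts, used as the detection floor, equalled 0.0784 to 0.110 CPM, which covers counting error only. In a principal component analysis, replicate 1 of the EKO line stood apart on the second component, with scores of 19.1 unpulsed and 20.9 OVA-pulsed, where the other EKO libraries lay between -18.7 and -0.968. Siglece mRNA was not lower in the edited line, with mean levels of 155.0 and 156.0 CPM in unpulsed and OVA-pulsed CtrV cells and 207 and 195 CPM in EKO cells. It was higher by the test, with a log2 fold change of 0.41 (adjusted p = 0.0026, edgeR) in unpulsed and 0.31 (adjusted p = 0.011, edgeR) in OVA-pulsed cells. Counts of mRNA do not measure the protein, and the study's methods state that the clones were screened for Siglec-E. The counts can thus not show whether the edit removed the protein or whether the labels are right. The libraries are called EKO-labelled for this reason, and all directions are those of the labels. Of a list of 12 DC markers, all 12 passed the expression filter, a log2 CPM over 0 in 2 or more libraries.

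Complement mRNA in these cells came from a few genes. Set per kilobase of exon, the scale on which genes can be ranked against each other, properdin was by far the highest of the listed genes, at 1247 to 1300 CPM per kb in the 4 group means, and held places 29 to 32 among the 14079 genes that passed the filter. Next came the C1q chains. C1qb had 494 ± 33.6 CPM per kb (SD, n = 3) in unpulsed CtrV cells, C1qa had 293 ± 15.6 and C1qc had 97.8 ± 5.88. The receptors followed, with 24.6 ± 4.49 CPM per kb for C5ar1 and 19.4 ± 1.73 for C3ar1 in the same cells. C3 and Cfb were near the bottom of the tested genes, at 0.130 ± 0.0553 and 0.119 ± 0.0475 CPM per kb, and no count of Serping1 was seen in any CtrV library. In EKO-labelled cells without and with OVA, C3 was still only at percentiles 13.8 and 15.6 of the tested genes, and Cfb at 9.55 and 10.7.

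The order of the listed genes was similar in the 4 groups, and some neighbours in it could not be separated. C3 and Cfb overlapped in both CtrV groups and in OVA-pulsed EKO-labelled cells. The receptors C5ar1 and C3ar1 overlapped in 3 of the 4 groups, the exception being unpulsed CtrV cells. C1qb and C1qa overlapped in unpulsed EKO-labelled cells and were separate in the other groups.

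**Figure D1:**
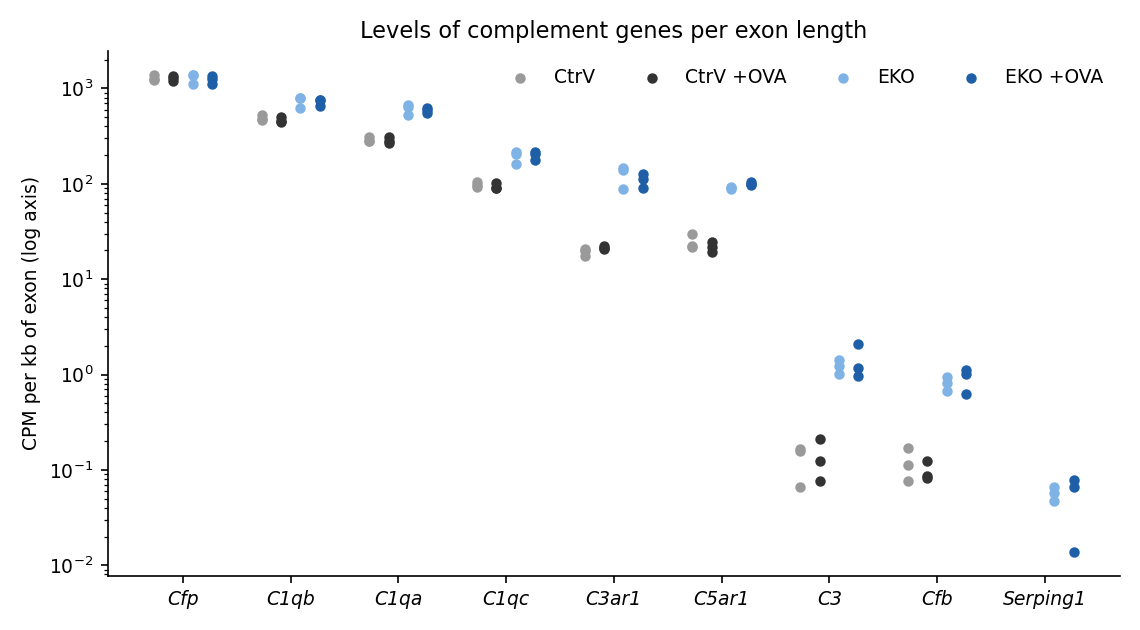
Levels of the 9 listed genes in CPM per kilobase of exon on a log axis, 1 point per library, with the 4 groups in grey, black, light blue and dark blue. Cfp sits near 1300 CPM per kb in every group, C3 and Cfb sit near 0.1 in CtrV and near 1 in EKO-labelled cells, and the CtrV libraries of Serping1, at 0, cannot be drawn.

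All 9 genes are protein-coding. On GRCm38 the C1q genes lie side by side on the minus strand of chromosome 4, within 18.7 kb (136880129 to 136898803), in the order C1qb, C1qc, C1qa. C5ar1 (chromosome 7, 16246743 to 16259540) is the neighbour of C5ar2 (16234585 to 16244154), which encodes a further C5a receptor. C3 (57203970 to 57228136) and Cfb (34856374 to 34862518) are far apart on chromosome 17. Cfp lies on chromosome X (20925454 to 20931555), C3ar1 on chromosome 6 (122847138 to 122856161) and Serping1 on chromosome 2 (84765387 to 84775444). The exons of 8 of the 9 genes overlap no other annotated gene. Cfb is the exception, since 79.5% of its exon bases are shared on the same strand with Gm20547, an annotated read-through of C2 and Cfb.

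Promoters of 6 of the listed genes were found in RefSeq (GRCm38.p6, 250 bases before to 50 after the start), namely those of C1qb, C1qc, C3, C3ar1, C5ar1 and Cfp. For 4 of them the RefSeq and GENCODE starts lay within 13 bases of each other, and the bases upstream are shown, because C3 and C3ar1 are among the genes with the largest differences between the lines, C1qb had the smallest that passed the test and Cfp did not pass it. All 4 genes are on the minus strand, each sequence reads 5′ to 3′ toward the start, and capitals mark matches to one of the searched motifs. They cover chr4:136886201-136886450 for C1qb, chr17:57228137-57228386 for C3, chr6:122856162-122856407 for C3ar1 and chrX:20931556-20931805 for Cfp.
C1qb: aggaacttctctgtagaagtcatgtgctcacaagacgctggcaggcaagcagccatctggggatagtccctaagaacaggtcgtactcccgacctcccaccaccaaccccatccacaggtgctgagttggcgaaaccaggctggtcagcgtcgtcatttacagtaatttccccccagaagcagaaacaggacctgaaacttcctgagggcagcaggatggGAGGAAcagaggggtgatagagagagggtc
C3: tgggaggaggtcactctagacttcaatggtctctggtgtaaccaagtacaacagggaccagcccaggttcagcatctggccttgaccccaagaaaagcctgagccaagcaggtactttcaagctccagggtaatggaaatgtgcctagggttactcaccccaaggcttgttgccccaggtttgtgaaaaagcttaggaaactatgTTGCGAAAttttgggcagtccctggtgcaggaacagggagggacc
C3ar1: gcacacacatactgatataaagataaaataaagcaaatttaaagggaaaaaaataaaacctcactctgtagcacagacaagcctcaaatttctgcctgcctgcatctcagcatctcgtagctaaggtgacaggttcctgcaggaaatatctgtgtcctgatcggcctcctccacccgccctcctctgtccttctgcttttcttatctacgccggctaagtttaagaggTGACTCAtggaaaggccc
Cfp: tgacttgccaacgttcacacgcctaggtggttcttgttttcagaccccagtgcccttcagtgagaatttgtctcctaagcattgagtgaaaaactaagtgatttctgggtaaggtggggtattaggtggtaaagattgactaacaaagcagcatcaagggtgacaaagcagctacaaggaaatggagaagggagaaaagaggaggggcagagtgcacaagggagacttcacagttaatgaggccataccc

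The motifs were searched on both strands of the whole windows. The C/EBP pattern TTGCNNAA was found once in the C3 promoter, with its first base at -45 from the start, and it is in 10.8% of the 32851 RefSeq promoters. The AP-1 pattern TGANTCA was found once in that of C3ar1, at -22, and is in 7.81% of promoters. The ETS or PU.1 core GAGGAA was found in C1qb at -30, in C1qc at -193 and in Cfp at 7 and 23 bases after the start, and is in 28.3% of promoters. C1qc also held a kappaB match at -41, a motif that is in 4.51% of promoters. Neither the interferon-gamma activated site (TTCNNNGAA, 8.30% of promoters) nor the interferon-stimulated response element (3.44%) was found in the 6 windows, and C5ar1 held none of these motifs. The matches describe the letters only.

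EKO-labelled cells held more mRNA of C3, Cfb, both receptors and all C1q chains than CtrV cells, while properdin mRNA, the most abundant, did not pass the test. The fitted fold in OVA-pulsed cells was 10.1 for C3, 9.18 for Cfb, 5.04 for C3ar1, 4.63 for C5ar1, 2.08 for C1qc, 2.06 for C1qa and 1.53 for C1qb. Of the 9 genes, 8 passed the expression filter. In OVA-pulsed cells 7 of them were higher and 0 lower at a threshold of 0.05 on the adjusted p (quasi-likelihood test of edgeR, adjusted by Benjamini-Hochberg over all tested genes), against 25.1% of all tested genes that were higher and 21.9% that were lower. In unpulsed cells it was again 7 higher and 0 lower, against 24.5% and 21.9% of all tested genes. With a log2 fold change of at least 1 as a further limit, 6 genes in OVA-pulsed and 5 in unpulsed cells were higher, against 5.63% and 5.56% of tested genes. The median log2 fold change of the 8 genes was 1.64 in OVA-pulsed and 1.46 in unpulsed cells, beside 0.00 for all tested genes.

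The filter bears on these counts. Cfb was above the minimum in 0 of the 6 CtrV libraries and C3 in 1 of 6, so both were tested because they were high in EKO-labelled cells. They also had the largest log2 fold changes of the 8 genes in both conditions and raise the median. Counts and medians over the 8 genes, also those with the fold limit, are therefore a description. The other 6 genes were above it in all 12 libraries, and 5 of these were higher in both comparisons. When every gene with at least 1 count was tested, all 9 entered and 8 were higher in OVA-pulsed cells, against 11.9% of 28881 genes, and likewise in unpulsed cells, against 11.9%. With OVA 3449 genes were higher here and 3531 of 14079 with the filter, so the share is smaller because genes of low level were added. Most listed genes are well above that level, and 11.9% is not a like measure for them.

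**Figure D2:**
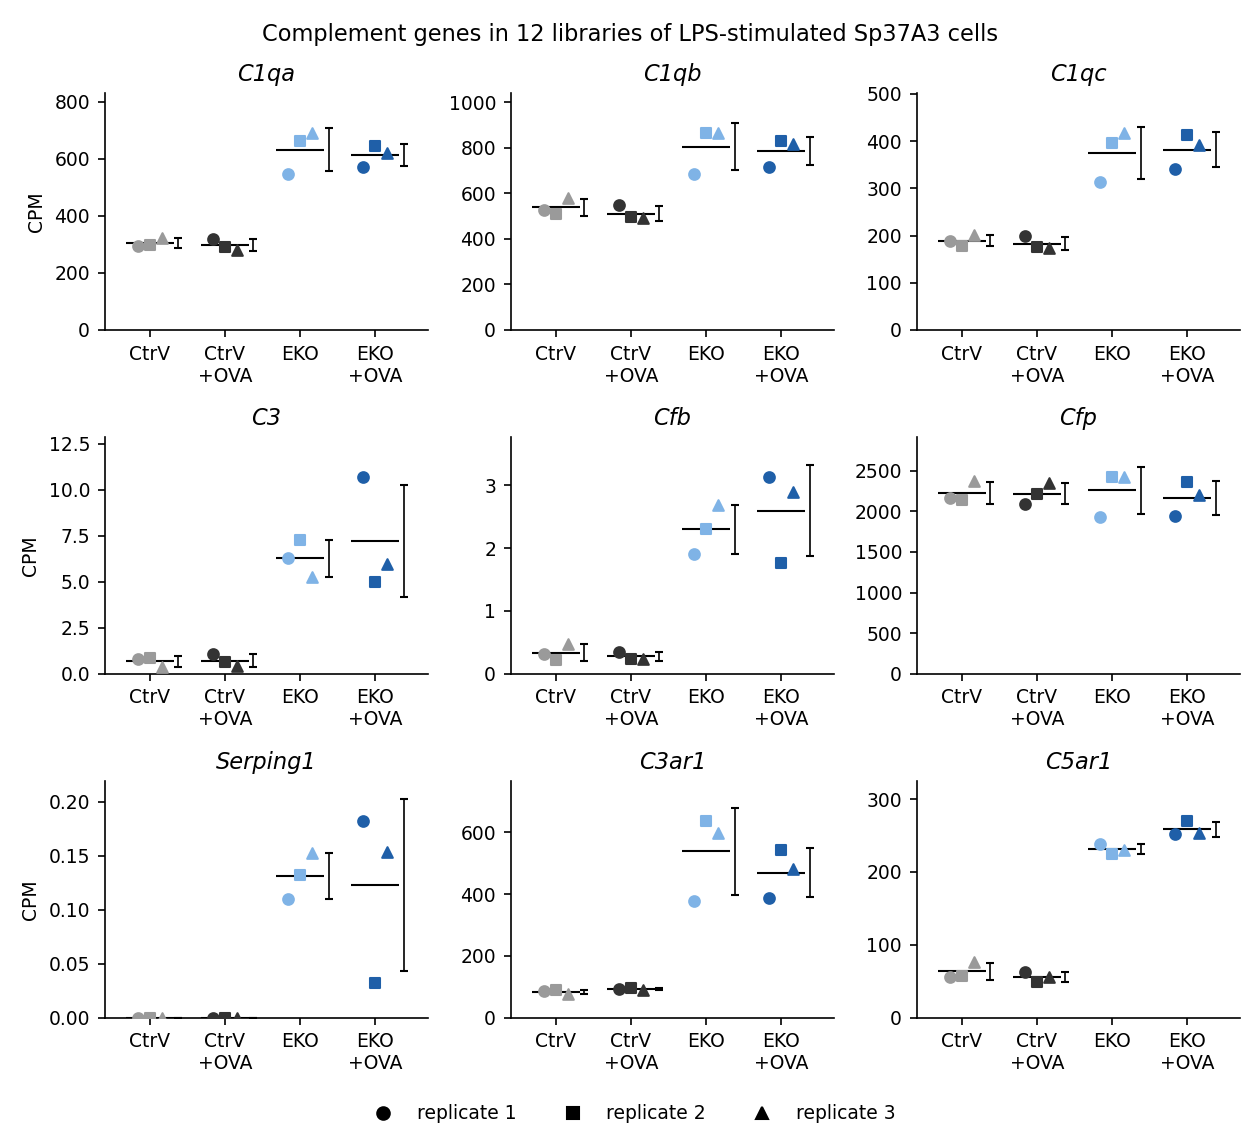
CPM of each listed gene in the 12 libraries, with 1 point per library, circles, squares and triangles for replicates 1, 2 and 3, a line at the group mean and a bar of 1 SD beside it. Every EKO-labelled library lies above every CtrV library in 8 of the 9 panels, and in the panel of Cfp the groups overlap. Within a pulsing condition, such a separation was seen in 27.0% of tested genes with OVA and in 24.1% without. Serping1 is not among the tested genes, and C3 and Cfb are among them because they were high in EKO-labelled cells.

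C1qa encodes the A chain of C1q, the recognition molecule of the classical pathway. In OVA-pulsed cells it had 320, 289 and 281 CPM in CtrV replicates 1, 2 and 3, and 571, 646 and 620.1 CPM in the EKO-labelled ones. In unpulsed cells it had 295, 296 and 324 CPM against 545, 661 and 690.3 CPM. Every EKO-labelled library was above every CtrV library in both conditions, a separation seen in 27.0% of tested genes with OVA and in 24.1% without. The log2 fold change was 1.04 with a standard error (SE) of 0.09 (adjusted p = 4.7e-06) in OVA-pulsed and 1.05 (adjusted p = 4.9e-06) in unpulsed cells, in edgeR's test with p adjusted by Benjamini-Hochberg.

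C1qc, the gene of the C chain, behaved alike. Its levels were 198, 176 and 173 CPM in OVA-pulsed CtrV and 340.0, 412 and 392 CPM in OVA-pulsed EKO-labelled cells. The unpulsed libraries had 189, 178 and 200.4 CPM against 312.5, 395 and 417 CPM, again without overlap. Its log2 fold change was 1.06 (SE 0.11, adjusted p = 1.7e-05, edgeR) with OVA and 0.98 (adjusted p = 3e-05, edgeR) without.

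C1qb, the gene of the B chain, had the smallest difference of the 7 genes. It had 548, 495 and 489.9 CPM in OVA-pulsed CtrV and 714, 829 and 815 CPM in EKO-labelled cells, and 526, 509 and 579 CPM against 686, 864 and 865 CPM without OVA. The lowest EKO-labelled library was above the highest CtrV library in both conditions. The log2 fold change was 0.61 (SE 0.09, adjusted p = 0.0003, edgeR) in OVA-pulsed and 0.58 (adjusted p = 0.00046, edgeR) in unpulsed cells.

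The chains of C1q are joined in equal numbers in the protein, and the balance of their mRNAs was read within each library, where depth and scaling drop out. Within a line the balance was nearly constant. In the 6 CtrV libraries C1qa made up 32.8% to 33.7% of the C1q mRNA per kb, C1qb 55.1% to 56.2% and C1qc 10.9% to 11.3%. In the 6 EKO-labelled libraries the shares were 38.5% to 39.8%, 47.5% to 48.6% and 12.3% to 13.4%. The ratio of C1qb to C1qa was 1.64 to 1.71 in CtrV and 1.195 to 1.26 in EKO-labelled libraries, with no overlap. The ratio of C1qc to C1qa was 0.323 to 0.344 in CtrV and 0.309 to 0.344 in EKO-labelled libraries, so these ranges overlapped. Replicate 1 of the EKO-labelled line, in which all C1q chains were low, kept a ratio of C1qb to C1qa below that of every CtrV library. These ratios are given as a description, without a test. The exon lengths come from the annotation and set the shares, whereas the contrast between the lines does not depend on them, since raw counts of C1qb to C1qa were 1.71 to 1.79 in CtrV and 1.25 to 1.31 in EKO-labelled libraries.

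**Figure D3:**
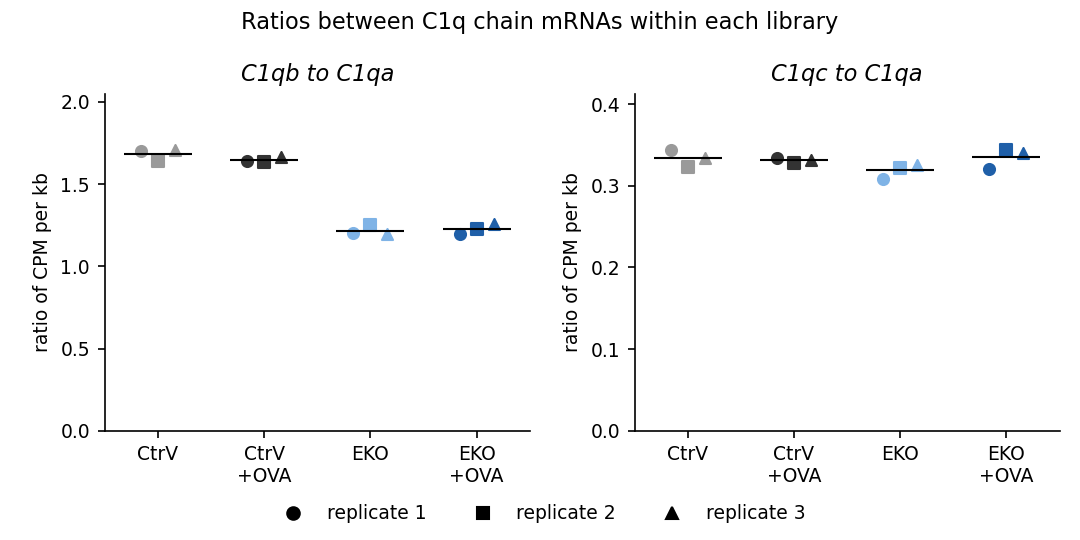
Ratios of C1qb to C1qa (left) and of C1qc to C1qa (right), in CPM per kb of exon, in each of the 12 libraries, with a line at each group mean. The left ratio is 1.64 to 1.71 in CtrV and 1.195 to 1.26 in EKO-labelled libraries, and the right ratio overlaps between the lines at about 0.33.

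Macrophages are a known source of C1q, and markers of these cells were therefore read beside it. Of a list of 12 such markers, 9 were tested, and 7 of them were higher and 0 lower in both line comparisons, where 25.1% of all tested genes were higher and 21.9% lower with OVA and 24.5% and 21.9% without. Their summed level was 1330 to 1516 CPM in CtrV and 1728 to 1887 CPM in EKO-labelled libraries. Among them Csf1r, the M-CSF receptor, went from 615 to 898 CPM in the means of OVA-pulsed cells. Adgre1, which encodes F4/80, had means of 633 to 647 CPM in the 4 groups. Maf, Cx3cr1 and Marco had CtrV group means of 0.265 to 0.669 CPM and EKO-labelled group means of 0.9996 to 1.42 CPM. These genes passed the filter largely through EKO-labelled cells, so the count of 7 higher markers is a description. Mrc1 was at 0 in every library, and Cd163 and Timd4 had at most 1 and 7 counts. Timd4 was seen in CtrV cells only, with group means of 0.0801 and 0.0381 CPM. Markers of DCs were present in both lines, with a summed level of 20710 to 23590 CPM. Most of this sum came from Cd74, at 15500 to 17240 CPM in the group means, and H2-Ab1, at 2966 to 4289 CPM. Flt3 had only 1.36 to 4.66 CPM, so the sums of the DC and macrophage lists cannot be set against each other. Of the 12 DC markers, 5 were higher and 4 lower in OVA-pulsed EKO-labelled cells, and 4 and 4 in unpulsed ones, beside the same shares of all tested genes. The part of the macrophage markers in the C1q result was not tested.

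C3, the central component that all pathways split, was very low in CtrV and higher, though still low among the tested genes, in EKO-labelled cells. It had 40, 21 and 12 counts in OVA-pulsed CtrV replicates 1, 2 and 3, and 410, 156 and 194 counts in the EKO-labelled ones. In CPM this was 1.08, 0.634 and 0.397 against 10.7, 5.01 and 5.96. The groups did not overlap, although replicate 1 of the EKO-labelled cells was 1.95 times the mean of the other two. Unpulsed CtrV libraries had 0.810, 0.858 and 0.343 CPM and unpulsed EKO-labelled ones 6.30, 7.25 and 5.25 CPM. The log2 fold change was 3.33 (SE 0.29, adjusted p = 5.6e-06) with OVA and 3.26 (adjusted p = 1.2e-05) without, in edgeR's test with p adjusted by Benjamini-Hochberg.

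Factor B is the protease of the alternative pathway convertase. Cfb had 13, 8 and 7 counts in OVA-pulsed CtrV and 120, 55 and 94 counts in OVA-pulsed EKO-labelled cells, or 0.351, 0.241 and 0.232 against 3.13, 1.77 and 2.89 CPM. In unpulsed cells it had 0.317, 0.215 and 0.480 CPM against 1.904, 2.31 and 2.69 CPM. All EKO-labelled libraries were above all CtrV libraries, with few counts behind the CtrV values. Its log2 fold change was 3.20 (SE 0.27, adjusted p = 5.8e-06, edgeR) with OVA and 2.77 (adjusted p = 2.2e-05, edgeR) without. The read-through gene Gm20547 also rose, with a log2 fold change of 2.81 (adjusted p = 1e-05, edgeR) in OVA-pulsed cells, and the counts of Cfb were 0.615 to 1.04 times its counts across the 12 libraries. Whether a read in a shared exon could count for both genes is not stated, so the level of Cfb is uncertain.

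C2, which lies beside Cfb and encodes the homologous protease of the classical pathway, had at most 14 counts in a CtrV library and 16 to 28 in an EKO-labelled one and did not pass the filter. When genes of all levels were tested it was higher, with a log2 fold change of 1.25 (adjusted p = 0.0042, edgeR) with OVA and 1.65 (adjusted p = 0.0021, edgeR) without. Of its exon bases 42.8% are shared with Gm20547, so its counts are uncertain too. Hepatocytes are the main source of C3 and factor B in plasma, and of their markers Ttr was at 0 in all 12 libraries, while Alb and Apoa1 had at most 1 count. Of the whole list for hepatocytes, fibroblasts and endothelium, 2 of 8 genes were tested, Pecam1 and Cdh5, and both were higher in EKO-labelled cells in both conditions. Of all tested genes 25.1% were higher with OVA and 24.5% without. Of the markers of B and T lymphocytes, 0 of 7 were tested, with a summed level of 0.0358 to 0.247 CPM in CtrV and 0.522 to 1.18 CPM in EKO-labelled libraries.

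Properdin stabilises the alternative pathway convertase and is stored by neutrophils and made by other myeloid cells. Cfp had 2088, 2210 and 2346 CPM in OVA-pulsed CtrV and 1939, 2355 and 2201 CPM in OVA-pulsed EKO-labelled cells. In unpulsed cells it had 2166, 2138 and 2378 CPM against 1924, 2426 and 2420 CPM. The groups overlapped in both conditions. The log2 fold change was -0.03 (95% interval -0.19 to 0.12, adjusted p = 0.71, edgeR) with OVA and 0.01 (-0.14 to 0.17, adjusted p = 0.90, edgeR) without, so differences over 0.19 on the log2 scale lay outside both intervals. Of the markers of granulocytes and mast cells, 0 of 7 were tested, and those of neutrophils, S100a8, S100a9 and Ly6g, were at 0 in every library.

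Serping1 was counted only in libraries labelled EKO, at levels too low for the filter. All 6 CtrV libraries had 0 counts, which allows up to 0.0810 to 0.107 CPM in each of them. The EKO-labelled libraries had 3, 4 and 5 counts without OVA and 7, 1 and 5 counts with OVA, or 0.0321 to 0.183 CPM. The libraries did not overlap, but the lowest EKO-labelled library was below the floor of 3 counts. Against a floor of 3 counts over the 3 CtrV libraries, Serping1 was 3.78-fold higher without OVA and 4.27-fold higher with OVA. These folds leave out the counting error of the EKO-labelled libraries and are not lower bounds. An exact two-sided permutation test within the pulsing conditions gave p = 0.005, the smallest that the 400 arrangements allow (n = 6 libraries per line). Any gene whose lines separate fully in both conditions gets this p. Of the tested genes, 27.0% with OVA and 24.1% without had every EKO-labelled library above every CtrV library. When genes of all levels were tested, its adjusted p was 0.024 with OVA and 0.03 without (edgeR's quasi-likelihood test).

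The receptors of the anaphylatoxins had the smallest adjusted p among the listed genes in both conditions. C3ar1, the C3a receptor, had 92.0, 95.8 and 88.2 CPM in OVA-pulsed CtrV and 386, 542 and 479.9 CPM in OVA-pulsed EKO-labelled cells. Without OVA it had 84.5, 90.2 and 75.5 CPM against 378, 638 and 599 CPM. The lowest EKO-labelled library was far above the highest CtrV library, and it was replicate 1 in both conditions. The log2 fold change was 2.33 (SE 0.14, adjusted p = 4.3e-07) with OVA and 2.67 (adjusted p = 2.2e-07) without, in edgeR's test with p adjusted by Benjamini-Hochberg.

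C5ar1, the receptor that draws myeloid cells toward C5a, had 62.7, 49.0 and 56.2 CPM in OVA-pulsed CtrV and 252, 270.5 and 254 CPM in OVA-pulsed EKO-labelled cells. In unpulsed cells it had 55.8, 57.5 and 76.6 CPM against 238, 225 and 230.5 CPM. Here the EKO-labelled libraries were close together, replicate 1 included. The log2 fold change was 2.21 (SE 0.11, adjusted p = 1.5e-07, edgeR) with OVA and 1.87 (adjusted p = 4.7e-07, edgeR) without. Its neighbour C5ar2, whose product binds C5a without coupling to G proteins, was also higher, from 1.21 ± 0.167 to 4.09 ± 0.429 CPM (SD, n = 3 each) with OVA, a log2 fold change of 1.74 (adjusted p = 3.5e-06, edgeR), and by 1.55 (adjusted p = 1e-05, edgeR) without OVA.

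**Figure D4:**
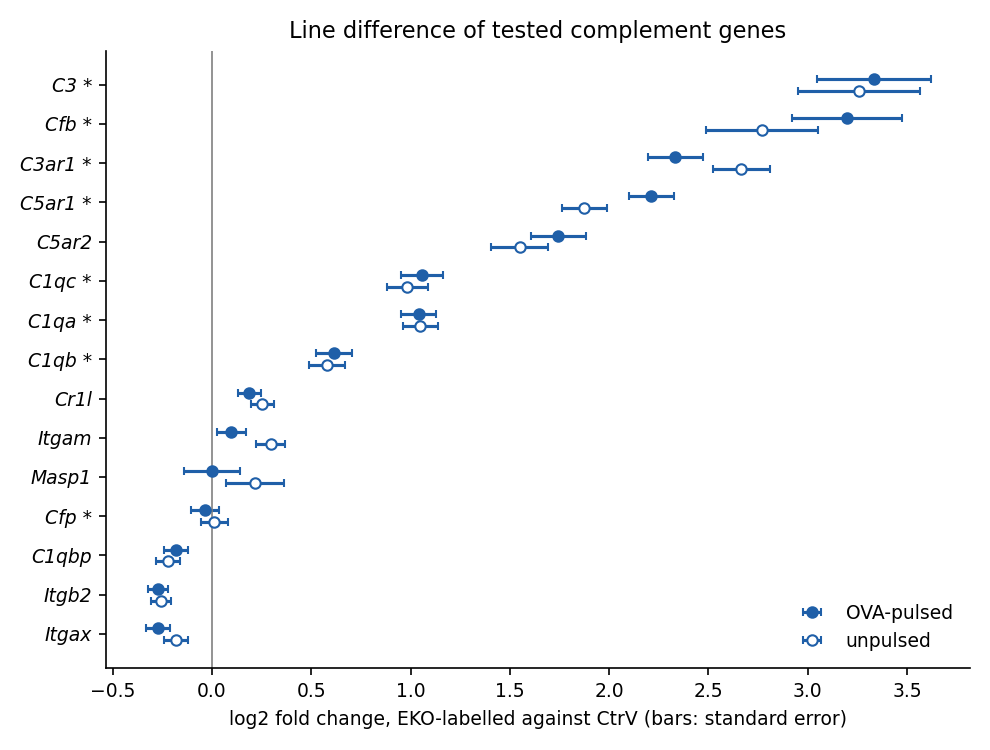
Log2 fold change of EKO-labelled over CtrV cells, with its standard error, for 15 tested genes of the complement lists in OVA-pulsed (filled) and unpulsed (open) cells, with asterisks at the listed genes. C3 and Cfb are near 3, the receptors near 2, the C1q genes between 0.58 and 1.06 and Cfp near 0, and Cr2, with 1 count or none in EKO-labelled libraries, is left out.

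The rest of the pathway was mostly missing from these cells. Of 56 complement genes in 6 lists compiled by hand, 16 were tested, and 20 had 0 counts in all 12 libraries. Outside the listed genes 8 of 47 were tested, of which 2 were higher and 4 lower with OVA, and 3 higher and 4 lower without. Over all tested genes 25.1% were higher and 21.9% lower with OVA, and 24.5% and 21.9% without. Cr2, among the lower genes, was tested because of its CtrV libraries and had at most 1 count in an EKO-labelled one. These counts are therefore a description. Of the terminal pathway genes, which encode the membrane attack complex and C5, 0 of 7 were tested, as were 0 of 8 soluble regulators. Of the 7 membrane regulators 1 was tested, Cr1l, which encodes Crry, and it was slightly higher (log2 fold change 0.19 with OVA, adjusted p = 0.021, and 0.25 without, adjusted p = 0.0047, edgeR).

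Among the receptors outside the listed genes, those that bind C3 fragments went the other way or moved little. Cr2, which encodes the receptors CR1 and CR2 of B cells and follicular DCs, had 23, 27 and 28 counts in unpulsed CtrV libraries. It had 0 in the unpulsed EKO-labelled ones, and was 27.5-fold lower against a floor of 3 counts over the group. This fold leaves out the counting error of the CtrV libraries and is not a lower bound. With OVA it had 94 counts over the CtrV libraries and 1 over the EKO-labelled ones, a ratio of 95.5 (exact 95% interval 16.7 to 3811, counting error only). The integrin genes of CR3 and CR4 changed by little, with log2 fold changes of -0.27 in Itgb2 (adjusted p = 0.0012), -0.27 in Itgax (adjusted p = 0.004) and 0.10 in Itgam (adjusted p = 0.31) in OVA-pulsed cells (edgeR). Without OVA they were -0.26, -0.18 and 0.29, with adjusted p of 0.0018, 0.031 and 0.008 (edgeR). Without the replicate number in the fit, Itgax (adjusted p = 0.067) and Itgam (adjusted p = 0.17) did not pass there. Of the exon bases of Itgam, 68.7% are shared with Gm49368, so its counts are uncertain. C1qbp, whose product binds the globular heads of C1q and resides in mitochondria, had a log2 fold change of -0.18 with OVA (adjusted p = 0.032, edgeR), which did not pass without the replicate number in the fit (adjusted p = 0.067). In unpulsed cells C1qbp had -0.22 (adjusted p = 0.013, edgeR), which still passed without the replicate number (adjusted p = 0.031, edgeR).

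OVA pulsing was not followed by a detectable difference in any listed gene. Of the 8 tested genes, 0 passed an adjusted p of 0.05 between OVA-pulsed and unpulsed cells of either line, or for a dependence of the line difference on pulsing, and 0 had an unadjusted p under 0.05. By edgeR, DESeq2 and limma voom alike, 0 of the 14079 genes passed in these comparisons, and unadjusted p under 0.05 were found by edgeR for 231 genes in CtrV cells, 394 in EKO-labelled cells and 269 for the dependence. DESeq2 gave 44, 156 and 103 such genes and limma voom 246, 423 and 297. The 95% interval of the log2 change on pulsing was -0.23 to 0.16 for C1qa in CtrV and -0.23 to 0.15 in EKO-labelled cells, and -0.16 to 0.14 and -0.21 to 0.10 for Cfp. It was much wider for C3 in CtrV cells, at -0.86 to 1.03, so that changes inside those bounds could not be seen there.

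The receptors came nearest to a dependence on pulsing, in opposite directions. For C5ar1 the line difference was larger by 0.34 on the log2 scale with OVA than without (95% interval -0.01 to 0.68, unadjusted p = 0.053, adjusted p = 1, edgeR), and C5ar1 was higher with OVA in 3 of 3 EKO-labelled pairs, by 0.08, 0.27 and 0.14. For C3ar1 it was smaller with OVA, with a dependence of -0.33 (-0.75 to 0.09, unadjusted p = 0.11, adjusted p = 1, edgeR), and C3ar1 was higher with OVA in 3 of 3 CtrV pairs, by 0.12, 0.09 and 0.22. Neither dependence passed the test. In every other listed gene with counts, and in C5ar1 of CtrV and C3ar1 of EKO-labelled cells, the 3 pairs were mixed in direction. The agreement of 3 pairs was picked out from these and is a description.

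Replicate 1 of the EKO-labelled line was low in part of the listed genes. It was below replicates 2 and 3 in both pulsing conditions for C1qa, C1qb, C1qc, Cfp and C3ar1, at 0.610 of their mean without OVA and 0.756 with OVA for C3ar1. With that replicate left out, the log2 fold changes with OVA were 1.11 for C1qa, 0.70 for C1qb, 1.17 for C1qc, 2.48 for C3ar1, 2.24 for C5ar1, 3.27 for C3 and 3.12 for Cfb. Without OVA they were 1.16, 0.70, 1.14, 2.90, 1.86, 3.52 and 2.95 in that order. All 7 genes passed the test in both conditions without it, and Cfp did not, at 0.01 and 0.09.

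The listed genes did not vary as one group among the libraries of a line. After the mean of each line was subtracted from the log2 CPM, the C1q chains had correlations of 0.95 to 0.97 with each other over the 12 libraries, and of 0.72 to 0.77 with Cfp. C3ar1 had 0.63 to 0.67 with the C1q chains and 0.73 with Cfp. C5ar1 and C3ar1 had -0.39, and C3 had -0.65 with Cfp and 0.05 with Cfb. These are descriptions, since the libraries share replicate numbers and pulsing, and C3 and Cfb rest on few counts in CtrV cells. Replicate 1 of the EKO-labelled line, low in the C1q chains, Cfp and C3ar1, stayed in and bears on the correlations among these genes.

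By the same measure, the tested genes most like each listed gene were sought over the whole table. Each closest match was the highest of 14079 genes over 12 libraries and had 0.939 to 0.976. High values were thus found for every listed gene that was tested, and small gaps in rank are not a result. For C1qa they were C1qb (0.971), Gm4332 (0.955) and C1qc (0.952), and for C1qb they were C1qa, Gm4332 (0.970) and C1qc (0.962). C1qc was closest to Cd14 (0.976), the gene of the LPS co-receptor, ahead of C1qb and C1qa. The other listed genes had no listed gene among their closest 3. For Cfp these were Milr1 (0.976), Gm31718 (0.972) and Derl1 (0.967). For C3ar1 they were Tent4a (0.965), Cgas (0.964) and Sema4d (0.957), and for C5ar1 Gpr171 (0.954), P2rx4 (0.894) and Gm21987 (0.887). C3 was closest to Vps33a (0.969), Rassf4 (0.960) and Bbc3 (0.953), and Cfb to Map1lc3b (0.939), its overlapping gene Gm20547 (0.933) and Psma5 (0.918).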

How the data were processed

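RNA sequencing of 12 Sp37A3 libraries (CtrV and EKO-labelled lines, unpulsed and OVA-pulsed, 3 replicates each) was used, and all columns of the count table entered. The authors deposited raw counts per gene. According to their methods, reads were aligned to mm10 with STAR and featureCounts counted read ends on the exon union of each Ensembl gene, and whether strand was used in counting is not given in the sources used here. Replicates were not pooled. The counts were normalized by TMM and fitted over all 12 libraries with edgeR 4.0.16 in R 4.3.3 (quasi-likelihood test, group and replicate number as covariates, as in the study's methods), for the 14079 of 55401 genes with a log2 CPM over 0 in 2 or more libraries. The p-values were adjusted by the Benjamini-Hochberg method over all of these genes, and an adjusted p under 0.05 was called. Standard errors were derived from the F statistic. A replicate pair deviated together between the lines with OVA (correlations of 0.448, 0.292 and 0.289) but, except for replicate 3, not without OVA (0.06, -0.012 and 0.263). Replicates within each group were further apart than sampling noise allows (chi-square of 4.29 or more per degree of freedom).

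Names, positions and exon lengths came from GENCODE on GRCm38, which is not the annotation of the authors. Total counts of 27116201 to 39698572 per library set the precision. The listed genes, the other complement genes, the marker lists and the motifs were chosen with earlier results of these data known. Outside the listed genes and Siglece, the rule for names took genes of the complement lists with an adjusted p under 0.05 in a line comparison, and the 3 genes most like each listed gene. C2, Gm20547, Gm49368 and the single markers were named after their values were seen. Alternatives were DESeq2 1.42.0, limma 3.58.1 voom, RLE and upper-quartile normalization, no expression filter, no replicate block, at least 10 counts in every library, a threshold of 0.01, a log2 fold limit of 1, only the compared libraries, and each library left out in turn. The fitting step was tested on simulated counts. One marker gene and one motif that were examined are not reported here.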

Additional observations from a re-analysis of the deposited data

How the results depend on the processing

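Of the listed genes, 7 were higher and 0 lower in both line comparisons under each normalization, tool and left-out library that was run on the filtered table. With a log2 fold limit of 1, 6 with OVA and 5 without OVA were higher. With no filter 8 of 9 were higher, and with at least 10 counts in every library, where Cfb was not tested, 6 of 7. The log2 fold changes of the 7 genes over all alternatives lay between 0.52 for C1qb and 3.61 for C3. Cfp was never called, with an adjusted p of 0.26 to 1. Without the replicate block, which pairs same-numbered libraries, 7 listed genes were higher in both comparisons, and 5413 and 5337 genes in all were called with and without OVA, where the fit with the block called 6619 and 6537. Without it Itgam (adjusted p = 0.17) and Itgax (0.067) were not called in unpulsed cells, nor was C1qbp with OVA (0.067). It changed no other call of the complement genes. Upper-quartile normalization split all calls into 3103 higher and 3696 lower with OVA and 2910 and 3864 without, where TMM gave 3531 and 3088, and 3448 and 3089. A fold limit of 1 left 1268 and 1241 genes in all. By raw counts, C1qa, C1qb and C1qc made up 29.8%, 51.9% and 18.4% of C1q mRNA in CtrV and 34.7%, 44.3% and 21.04% in EKO-labelled libraries, where exon length is not taken out. Depth limits C3, Cfb and Serping1 in CtrV cells, which rest on at most 40 counts per library.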
